A study of Drosophila melanogaster with 6 samples.

Results

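The genes described here are 38 genes of Drosophila melanogaster that encode the structural, regulatory and calcium-handling proteins of the sarcomere. They were chosen by symbol from the annotation of 17494 genes, and all 38 were found in the count table. PolyA RNA was sequenced from FACS-purified myoblasts of the wing disc at 0 h APF (after puparium formation), from animals kept at 25 °C. The 3 M1BP RNAi libraries came from animals with UAS-M1BP RNAi line #1 under Mef2-GAL4, and the 3 WT libraries from animals in which the driver was combined with a wild-type chromosome. All 6 libraries carried Mef2-GAL4 and the reporter UAS-GFP::Gma, a GFP fused to an actin-binding fragment of Moesin, on which the cells were sorted. No control RNAi construct was named for WT, and the sex of the animals was not given. Mef2-GAL4 drives expression throughout the muscle lineage and, per the study, also in some neurons, and the 6 neuronal markers summed to 30.0 to 36.4 CPM in M1BP RNAi and 33.9 to 37.3 in WT. Each preparation pooled 30 to 35 wing discs, and the labels give about 25000 sorted cells in the sample source and about 50000 in the protocol. The libraries were made from triplicate RNA preparations, so p-values measure the spread between these preparations.

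A sarcomere is the contractile unit of striated muscle, in which thick filaments of myosin slide along thin filaments of actin. Thin filaments are anchored in the Z-disc and regulated by tropomyosin and the calcium-binding troponin complex. Giant elastic proteins link the thick filaments to the Z-disc. The myoblasts of the wing disc are undifferentiated precursors that fuse and build the adult flight muscles during pupation, and in muscle development most of these genes are switched on during differentiation. Many of the proteins have relatives, or isoforms of the same gene, that work in the actin cytoskeleton of cells that are not muscle. Transcripts of this group therefore show, at 0 h APF, which parts of the contractile apparatus are already transcribed in precursors and whether M1BP, a DNA-binding protein that recognises the Motif 1 element of core promoters, alters them.

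The libraries held between 43086545 and 51855156 counted reads, of which the 38 genes took between 0.279% and 0.334%. M1BP, the targeted gene, had 1386, 1703 and 1671 counts in the M1BP RNAi libraries, against 5821, 5288 and 5589 in WT, a mean of 30.5% of the WT level. Markers of the labelled cell type were abundant, with 10 of 10 myoblast markers tested, of which edgeR called 0 at an adjusted p of 0.05 (0 also had an unadjusted p under 0.05), and a summed level of 10437 to 11185 counts per 1000000 reads (CPM) in M1BP RNAi and 10482 to 11864 in WT. The 7 markers of wing disc epithelium summed to 845 to 928 CPM in M1BP RNAi and 907 to 1095 in WT, and edgeR called 0 of them (1 had an unadjusted p under 0.05). Most of that sum was shg, the E-cadherin gene, at a mean of 40333 normalised counts in M1BP RNAi and 44912 in WT, while the next, crb, stood at 343 in M1BP RNAi and 431 in WT. Of the 7 epithelial log2 ratios, 6 lay below 0 and 1 above, with a median of -0.33. In 2 of the 7 the groups were apart and lower in M1BP RNAi, where this held for 12.3% of all tested genes. The 7 haemocyte markers summed to between 20.8 and 25.3 CPM in M1BP RNAi and between 25.9 and 38.2 in WT, with eater at 0 in each library. The 5 tracheal markers averaged 21.3 ± 4.29 CPM in M1BP RNAi and 35.5 ± 14.9 in WT as a sum (SD, n = 3), with overlapping groups, and the 6 fat body markers summed to at most 1.20 CPM in M1BP RNAi and at most 1.18 in WT. Of these haemocyte and tracheal markers edgeR called 0, but 2 of 4 tested haemocyte and 3 of 5 tracheal markers had an unadjusted p under 0.05. Among all tested genes 20.2% did. Their median log2 ratios were -0.69 and -0.63. The 4 glial markers summed to 3.35 to 4.14 CPM in M1BP RNAi and 2.39 to 3.69 in WT, with 4 of 4 log2 ratios above 0. The haemocyte sums were lower in M1BP RNAi than in WT in all 3 libraries, and their part in the results was not tested. These are bulk samples, in which fewer cells of a type and less RNA per cell cannot be told apart.

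The levels of the 38 genes spanned from 0 counts to the range of abundant transcripts. Levels between genes were compared per length, as CPM per kb of annotated exon. In WT, 9 genes lay at or above 10 CPM per kb, 5 between 1 and 10, and 24 under 1. The 6 highest were Act57B, Act87E, cpa, Lasp, SERCA and cpb, and the mean WT level of each was above that of at least 86.8% of the 10306 genes tested. The other 3 above 10 CPM per kb were Actn, Tm1 and tmod. Apart from the 2 actins, these 9 encode proteins that also serve outside muscle, namely the capping protein of actin filaments, the calcium pump of the endoplasmic reticulum, α-actinin, tropomyosin, tropomodulin and the actin-binding protein Lasp. Far below them stood Mhc, the muscle myosin heavy chain, at 0.262 ± 0.242 CPM per kb in M1BP RNAi and 0.141 ± 0.029 in WT (SD, n = 3). Mlc1, the essential light chain, was at 0.223 ± 0.292 in M1BP RNAi and 0.164 ± 0.082 in WT. By WT mean, Mhc and Mlc1 ranked 23 and 21 of the 38, with members such as bt and Prm lower still. In the order of the WT means, 14 of 37 neighbouring pairs had WT ranges that did not overlap, and 13 of these lay among the 17 highest genes. Below RyR the neighbours overlapped throughout, so that the order of the low genes was not resolved. Because exonic length counts the exons of every isoform, the level of genes with many isoforms, such as sls with 58996 bases, is understated where a cell uses a short one.

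**Figure D1:**
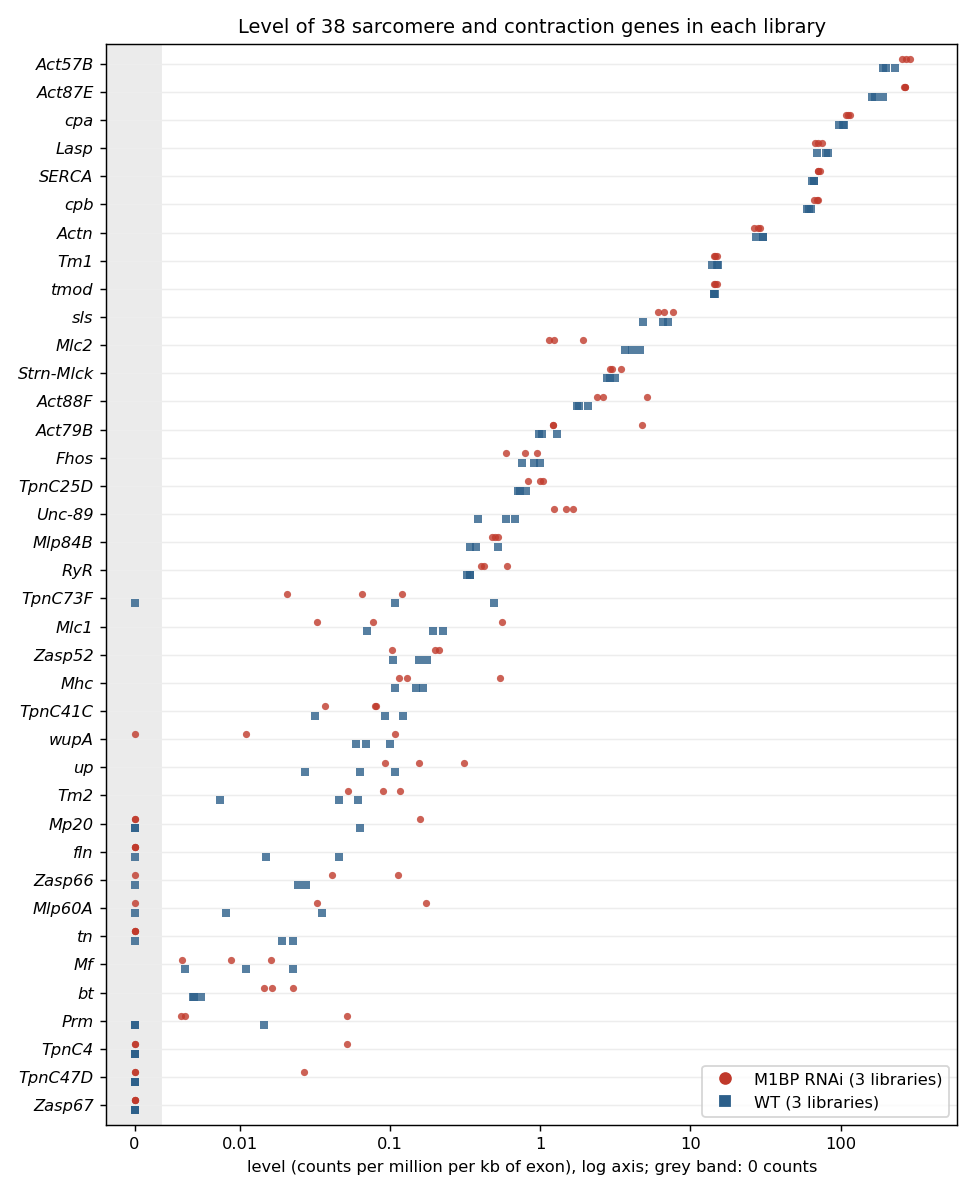
Level of each of the 38 genes (rows, ordered by the WT mean) in each library, in CPM per kb of exon on a log axis, with M1BP RNAi libraries as circles above and WT libraries as squares below, and 0 counts in the grey band. The genes run from Act57B and Act87E above 100 CPM per kb to Zasp67 with 0 counts. The groups stand apart for 11 of the 24 tested genes, with Act87E, Mlc2 and Unc-89 among them.

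For 3 myosin genes the cytoplasmic counterpart was set beside the muscle gene, a choice made after the values were seen. Per length, zip (cytoplasmic myosin heavy chain) stood at 179 ± 5.89 CPM per kb in M1BP RNAi and 190 ± 14.6 in WT (SD, n = 3), which in WT was 1351 times the level of Mhc. Mlc-c, the cytoplasmic essential light chain, was at 288 ± 2.49 CPM per kb in M1BP RNAi and 255 ± 12.3 in WT, in WT 1555 times the level of Mlc1. sqh, the cytoplasmic regulatory light chain, was at 410.3 ± 3.58 in M1BP RNAi and 369 ± 17.3 in WT, in WT 89.2 times the level of Mlc2. Each of the 3 muscle myosin genes thus stood far below its cytoplasmic counterpart in both genotypes.

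Differences between the genotypes were tested with edgeR's quasi-likelihood test across all genes with enough counts. Of the 38 genes, 24 were tested and 14 fell under the filter on low counts. At the study's threshold, an adjusted p of 0.001 with a 1.5-fold change, 0 of the 24 passed in edgeR, where the share over all tested genes was 0.475%, while 11 of the 24 had an unadjusted p under 0.05, where 20.2% of all tested genes did. The DESeq2 Wald test called 3 at the same threshold (Act87E, Mlc2 and Unc-89), where it called 1.58% of the genes it tested. At an adjusted p of 0.05, the rule by which a gene is said to be called hereafter, edgeR picked 4 of the 24, or 16.7%, where the share over all tested genes was 4.09%. Act57B, Act87E and Unc-89 rose in M1BP RNAi, 3 of 24 where 1.92% of all tested genes rose, and Mlc2 fell, 1 of 24 where 2.17% fell. The groups of libraries did not overlap for 11 of the 24 (10 higher, 1 lower in M1BP RNAi), or 45.8%, where the share over all tested genes was 26.1% (13.8% higher, 12.3% lower). The fitted log2 ratio of M1BP RNAi over WT had a median of 0.25 over the 24, with 19 above 0 and 5 below, and that of all tested genes was 0.0070. These shares describe the genes that passed the filter, a step that low genes pass more easily when high in 1 group.

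**Figure D2:**
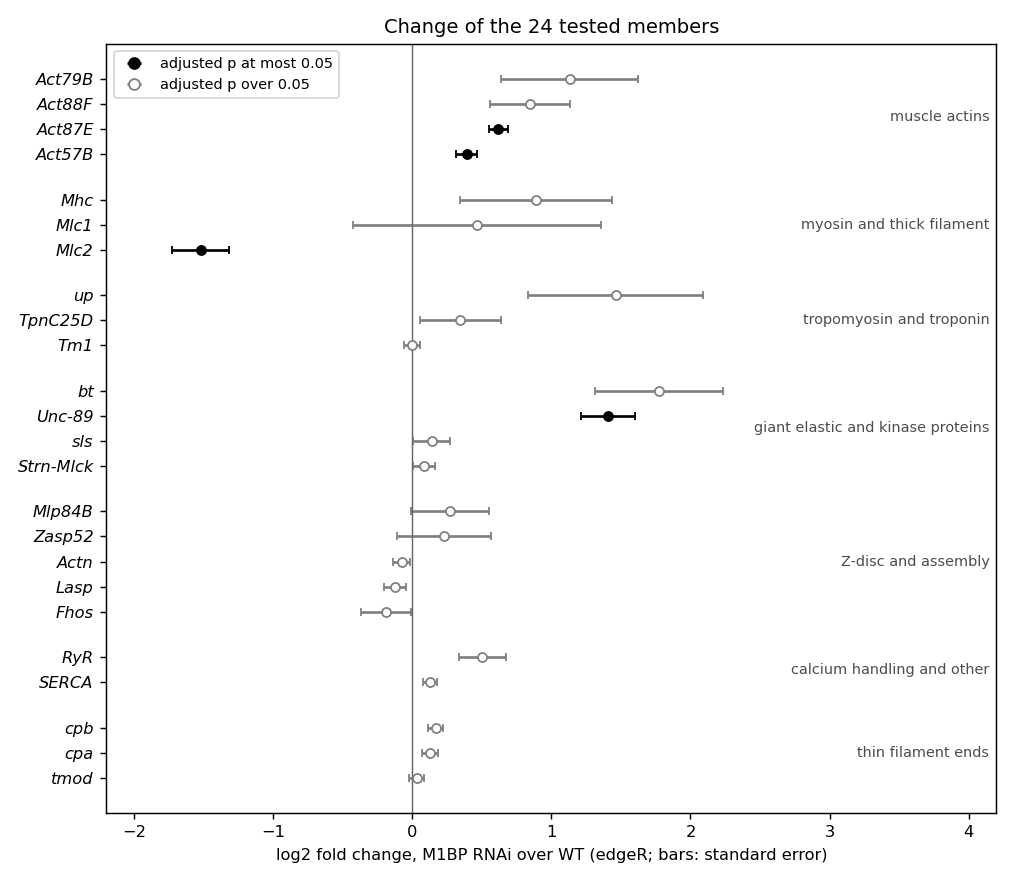
Log2 ratio of M1BP RNAi over WT for the 24 tested genes with its standard error (edgeR), grouped by role, with filled points for an adjusted p of at most 0.05. The filled points are Act87E at 0.62, Act57B at 0.39, Unc-89 at 1.41 and Mlc2 at -1.52, and the widest bars belong to Mlc1, up, Mhc and Act79B.

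The muscle actins form the core of the thin filament, and 2 of the 4 were called. Act87E (FBgn0000046, dm6 3R, 13425983 to 13428375), an actin of larval and adult body muscles, had 24912, 23235 and 24192 counts in the M1BP RNAi libraries, against 16547, 16695 and 16827 in WT. Every M1BP RNAi library lay above every WT library, and the M1BP RNAi libraries differed little among themselves. After scaling to library size the level was 24936 ± 183 normalised counts in M1BP RNAi and 16244 ± 1493 in WT (SD, n = 3), a 1.54-fold difference (log2 ratio 0.62, SE 0.070, adjusted p 0.00110, edgeR). It kept an adjusted p of at most 0.0106 in all 12 alternative fits. Exons of lncRNA:CR45591 on the opposite strand cover 3.02% of its exonic bases.

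Act57B (FBgn0000044, 2R, 20944021 to 20946431), which is used in embryonic, larval and adult muscles, had 23204, 19179 and 21353 counts in M1BP RNAi, against 17732, 17176 and 16658 in WT. Again the groups did not overlap after normalisation, with 21936 ± 1245 normalised counts in M1BP RNAi and 16724 ± 1527 in WT (SD, n = 3). The log2 ratio was 0.39 (SE 0.076, adjusted p 0.0203, edgeR), or 1.31-fold. This call was not kept when any 1 of 5 libraries was left out, although the log2 ratio stayed between 0.33 and 0.46 over all 6 omissions. Its adjusted p in edgeR was then 0.0789, 0.0604 and 0.0729 without M1BP RNAi replicate 1, 2 or 3, and 0.113 and 0.0603 without WT replicate 1 or 3. A snoRNA gene lies in 5.57% of its exonic bases.

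Act79B and Act88F, actins of tubular muscles and of the indirect flight muscles in turn, were far lower and were not called. Act88F (FBgn0000047, 3R) had 178, 181 and 378 counts in M1BP RNAi, against 171, 126 and 140 in WT. Act79B (FBgn0000045, 3L) had 93, 85 and 354 counts in M1BP RNAi, against 85, 91 and 80 in WT. In both genes replicate 3 of M1BP RNAi stood above the other 5 libraries, by 3.92 times its fellow M1BP RNAi libraries for Act79B and by 2.07 times for Act88F. After normalisation the groups of Act88F did not overlap, while those of Act79B did. The log2 ratios were 1.13 (SE 0.49, adjusted p 0.236, edgeR) for Act79B and 0.85 (SE 0.29, adjusted p 0.139, edgeR) for Act88F. Without M1BP RNAi replicate 3 they were 0.15 and 0.41. The 4 muscle actins together made up 7.47%, 7.14% and 7.10% of all counts of the 6 actin genes in M1BP RNAi, against 5.22%, 5.70% and 5.35% in WT, the rest being Act5C and Act42A, the cytoplasmic actins. The coding regions of the 6 actin genes are nearly identical, and the column names of the count table mark the alignments as unique, so that reads shared between copies may be missing or misassigned and the values of single actins are uncertain.

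**Figure D3:**
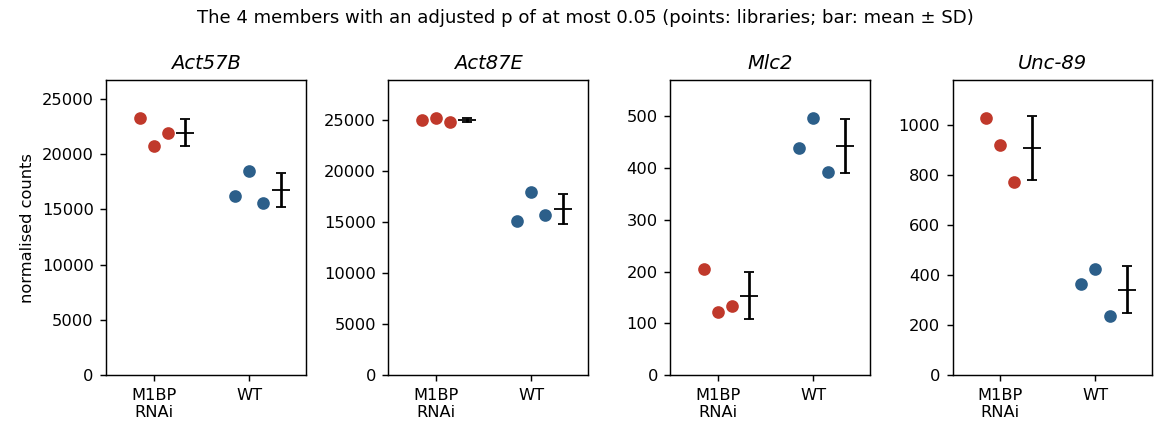
Normalised counts of Act57B, Act87E, Mlc2 and Unc-89 in each library (points, axes from 0), with the M1BP RNAi libraries left of the WT libraries and the mean ± SD beside each group. No M1BP RNAi library overlaps a WT library in any of the 4 panels, with Act57B, Act87E and Unc-89 higher and Mlc2 lower in M1BP RNAi.

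Thick filaments consist of myosin heavy chains with essential and regulatory light chains, around a core of paramyosin with flightin and myofilin. Mlc2 (FBgn0002773, 3R, 30171438 to 30174551), the regulatory light chain of muscle myosin, was the member that fell. It had 205, 113 and 130 counts in M1BP RNAi, against 481, 461 and 420 in WT, with no overlap between the groups. The level was 153 ± 45.1 normalised counts in M1BP RNAi and 442 ± 51.7 in WT (SD, n = 3), which is 34.7% of the WT mean. Its log2 ratio of -1.52 (SE 0.21, adjusted p 0.00304, edgeR) stayed between -1.80 and -1.39 when single libraries were left out, and its adjusted p was at most 0.0210 in all 12 alternative fits. Its exons overlap those of 0 other genes in the count table.

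The myosin heavy chain and the essential light chain were not called. Mhc (FBgn0264695, 2L) had 55, 45 and 224 counts in M1BP RNAi, against 69, 43 and 75 in WT. As with Act79B, replicate 3 of M1BP RNAi was the highest library, and the other 5 lay in 1 range. The log2 ratio was 0.89 (SE 0.55, adjusted p 0.397, edgeR), and -0.21 without that library. Mlc1 (FBgn0002772, 3R) had 37, 2 and 5 counts in M1BP RNAi, against 14, 14 and 5 in WT. Here replicate 1 of M1BP RNAi was highest and the groups overlapped (log2 ratio 0.46, SE 0.89, adjusted p 0.811, edgeR), with -1.53 in its absence. The thick filament genes Prm, fln and Mf were too low to test and are given with the other low genes.

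Of the 9 tropomyosin and troponin genes, 3 were tested and neither edgeR nor DESeq2 called any at an adjusted p of 0.05, while up alone had an unadjusted p under 0.05 in edgeR. Tm1 (FBgn0003721, 3R), a tropomyosin gene with muscle and cytoplasmic isoforms, had 6402, 5988 and 6502 counts in M1BP RNAi, against 7288, 5713 and 7285 in WT. Normalised, that was 6511 ± 127 in M1BP RNAi and 6528 ± 347 in WT (SD, n = 3), a log2 ratio of -0.0038 (SE 0.059, adjusted p 0.980, edgeR) whose sign depended on the libraries used. The neighbouring Tm2, a tropomyosin gene of muscle, had no more than 14 counts in any library.

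up, which encodes troponin T, had 11, 17 and 36 counts in M1BP RNAi, against 14, 3 and 8 in WT (log2 ratio 1.46, SE 0.63, adjusted p 0.231, edgeR), and the groups overlapped. With 3 and 8 counts in WT replicates 2 and 3, up passed the filter only through M1BP RNAi, and its ratio carries that selection. TpnC25D, a troponin C, was the highest of the troponin C genes, with 61, 45 and 57 counts in M1BP RNAi, against 52, 39 and 46 in WT. After normalisation its groups were just apart, at 56.0 ± 6.51 in M1BP RNAi and 44.1 ± 2.95 in WT (SD, n = 3), but the log2 ratio of 0.34 (SE 0.29, adjusted p 0.543, edgeR) was not called. TpnC25D was thus the troponin gene with the most counts in every library, while TpnC4, the troponin C that belongs to the flight muscles, was at 0, 0 and 2 counts in M1BP RNAi and 0 in each WT library.

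The giant elastic and kinase proteins link thick filaments to the Z-disc or the M-line, and Unc-89 was called among them. Unc-89 (FBgn0053519, 2R, 23995543 to 24014254), the fly obscurin of the M-line, had 1028, 854 and 756 counts in M1BP RNAi, against 401, 396 and 256 in WT. The lowest M1BP RNAi library was thus well above the highest WT library. Normalised counts were 909 ± 128 in M1BP RNAi and 343 ± 95.2 in WT (SD, n = 3), a 2.65-fold difference (log2 ratio 1.41, SE 0.19, adjusted p 0.00334, edgeR). When single libraries were left out it lay between 1.19 and 1.58, with an adjusted p of at most 0.0225 in all 12 alternative fits. Per length the gene remained low, at 1.47 ± 0.207 CPM per kb in M1BP RNAi and 0.554 ± 0.154 in WT.

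bt, which encodes the elastic protein projectin, had 19, 20 and 29 counts in M1BP RNAi, against 8, 6 and 7 in WT. The groups did not overlap, and the log2 ratio of 1.77 (SE 0.46, adjusted p 0.0637, edgeR) was the largest among the tested members but not called. Each WT library lay under the filter's minimum count of 10, so bt was tested only through the group where it was high. Its ratio and the lack of overlap therefore carry that selection. Spread over 28019 exonic bases, bt was close to absent in both genotypes, at 0.0179 ± 0.0042 CPM per kb in M1BP RNAi and 0.0052 ± 0.00036 in WT (SD, n = 3). sls, the fly titin-like gene of the I-band, had far more counts, with 21191, 16988 and 16450 in M1BP RNAi, against 21564, 12450 and 19402 in WT. Its groups overlapped, and its log2 ratio of 0.14 (SE 0.13, adjusted p 0.590, edgeR) turned to -0.012 without WT replicate 2. Strn-Mlck, a large kinase-domain protein of muscle, also had overlapping groups, with 5276, 4141 and 4520 counts in M1BP RNAi, against 5306, 3962 and 4771 in WT (log2 ratio 0.086, SE 0.079, adjusted p 0.580, edgeR). The 4 giant genes did not share a level, with sls at 6.81 ± 0.804 CPM per kb in M1BP RNAi and 6.18 ± 1.19 in WT (SD, n = 3), well above Unc-89 and bt.

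Of the 9 genes of the Z-disc and of sarcomere assembly, 5 were tested and neither edgeR nor DESeq2 called any at an adjusted p of 0.05, with 0 under an unadjusted p of 0.05 in edgeR. Lasp (FBgn0063485, 3L, 16676406 to 16711677), a nebulin-repeat protein of thin filaments, had 14593, 12915 and 15084 counts in M1BP RNAi, against 18096, 13327 and 18385 in WT (log2 ratio -0.13, SE 0.076, adjusted p 0.392, edgeR). CG43954 is listed with the same exonic bases and the same counts in all 6 libraries, so that these reads cannot be assigned to either gene. Actn, the α-actinin that crosslinks thin filaments at the Z-disc, had 7139, 6063 and 6813 counts in M1BP RNAi, against 8210, 6328 and 8063 in WT (log2 ratio -0.078, SE 0.064, adjusted p 0.533, edgeR), with 20.7% of its exonic bases shared with usp, CG4313 and east.

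Fhos, a formin needed for thin filament growth, had 457, 264 and 371 counts in M1BP RNAi, against 478, 339 and 513 in WT. Zasp52, a PDZ and LIM domain protein that binds α-actinin, had 101, 99 and 51 counts in M1BP RNAi, against 87, 49 and 96 in WT. Mlp84B, a muscle LIM protein, had 73, 65 and 75 counts in M1BP RNAi, against 55, 51 and 83 in WT. The groups overlapped for all 3 genes, with log2 ratios of -0.19 (SE 0.18), 0.23 (SE 0.34) and 0.27 (SE 0.28) in edgeR. Zasp52 and its relatives Zasp66 and Zasp67 were thus present at 49 to 101 counts, at 15 counts or fewer, and at 0.

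Calcium handling was represented by SERCA, the pump that returns calcium to the endoplasmic or sarcoplasmic reticulum, and RyR, the ryanodine receptor that releases it. SERCA (FBgn0263006, 2R, 23925077 to 23935884) had the smallest standard error among the tested members, with 28003, 25499 and 26877 counts in M1BP RNAi, against 28005, 23812 and 26926 in WT. Normalised, these were 27699 ± 284 in M1BP RNAi and 25419 ± 253 in WT (SD, n = 3). The groups did not overlap, but the log2 ratio was 0.12 (SE 0.050, adjusted p 0.202, edgeR), and in no alternative did its adjusted p fall under 0.151. Exons of CG2812, which rose by 0.89 on the log2 scale (adjusted p 0.00215, edgeR), cover 16.0% of the exonic bases of SERCA on the opposite strand, and the use of strand in counting was not given in the sources used here.

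RyR had 312, 302 and 449 counts in M1BP RNAi, against 286, 244 and 270 in WT. The M1BP RNAi libraries all lay above the WT libraries after normalisation, at 366 ± 81.2 in M1BP RNAi and 258 ± 5.54 in WT (SD, n = 3). The log2 ratio of 0.50 (SE 0.17, adjusted p 0.136, edgeR) was not called and was 0.30 without M1BP RNAi replicate 3. Per length RyR stood at 0.477 ± 0.106 CPM per kb in M1BP RNAi and 0.337 ± 0.0072 in WT, while SERCA stood at 71.7 ± 0.736 in M1BP RNAi and 65.8 ± 0.653 in WT.

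The ends of thin filaments are closed by capping protein at the Z-disc side and by tropomodulin at the free end, and these 3 genes were among the steadiest. cpa (FBgn0034577, 2R, 21057787 to 21059883), the α subunit of capping protein, had 10308, 8983 and 9891 counts in M1BP RNAi, against 9627, 8708 and 10152 in WT. cpb (FBgn0011570, 2L, 1704902 to 1706962), the β subunit, had 6002, 5770 and 6243 counts in M1BP RNAi, against 5892, 5307 and 5909 in WT. The libraries of both genes were apart after normalisation, with a log2 ratio of 0.13 (SE 0.057, adjusted p 0.249, edgeR) for cpa and 0.17 (SE 0.056, adjusted p 0.134, edgeR) for cpb, neither of which was called. tmod, the tropomodulin gene, had 5624, 5250 and 5760 counts in M1BP RNAi, against 6098, 5206 and 6074 in WT, and its groups overlapped (log2 ratio 0.032, SE 0.053, adjusted p 0.780, edgeR). Per length, cpa stood at 112 ± 3.44 CPM per kb in M1BP RNAi and 103 ± 4.11 in WT, and cpb, its partner in the heterodimer, at 69.0 ± 2.13 in M1BP RNAi and 61.4 ± 1.81 in WT (SD, n = 3).

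The 14 genes under the filter had at most 27 counts in any library, and they are counted here without a test. Of the thin filament regulators, Tm2 had 11, 6 and 14 counts in M1BP RNAi and 1, 7 and 6 in WT. wupA, which encodes troponin I, had 10, 0 and 1 counts in M1BP RNAi and 6, 6 and 10 in WT. TpnC73F had 6, 3 and 1 counts in M1BP RNAi and 27, 5 and 0 in WT. In each of these genes the groups overlapped. TpnC41C had 7, 3 and 7 counts in M1BP RNAi and 9, 10 and 3 in WT, and TpnC47D had 1, 0 and 0 counts in M1BP RNAi and 0 in each WT library.

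Of the thick filament genes, Prm (paramyosin) had 13, 1 and 1 counts in M1BP RNAi and 4, 0 and 0 in WT. Mf, which encodes myofilin, had 4, 2 and 1 counts in M1BP RNAi and 3, 1 and 6 in WT. fln, the flight muscle protein flightin, had 0 counts in M1BP RNAi and 1, 0 and 3 in WT, all of them in exons shared with asRNA:CR45161. Apart from the 13 counts of Prm in M1BP RNAi replicate 1, these 3 genes had at most 6 counts in a library, close to the floor of 3 counts, which corresponds to between 0.0579 and 0.0696 CPM in these libraries and covers counting error only.

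Of the Z-disc, assembly and other genes, Zasp66 had 15, 5 and 0 counts in M1BP RNAi and 4, 3 and 0 in WT. Mlp60A, a muscle LIM protein, had 23, 4 and 0 counts in M1BP RNAi and 0, 1 and 5 in WT. Mp20, a calponin-like protein of muscle, had 7, 0 and 0 counts in M1BP RNAi and 0, 0 and 3 in WT. These 3 genes, like Prm, had their highest count in replicate 1 of M1BP RNAi. tn, the fly TRIM32, had 0 counts in each M1BP RNAi library and 6, 0 and 7 in WT. Zasp67 had 0 counts in all 6 libraries. At this depth a count of 0 in a library allows up to 3 counts, and so absence of these transcripts cannot be told from a level under the floor.

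The low members were not high in the same M1BP RNAi library. Mhc, Act79B, Act88F, up, RyR, bt, Tm2 and TpnC4 had their highest value in replicate 3. Mlc1, Prm, Mlp60A, Zasp66, Mp20, wupA and TpnC47D, among others, had theirs in replicate 1. Of the 24 tested members at any level, 8 were highest in replicate 1 of M1BP RNAi and 8 in replicate 3. Among all tested genes these shares were 13.4% and 15.7%. The summed level of the 14 untested genes was 2.08, 0.555 and 0.591 CPM in M1BP RNAi, against 1.19, 0.758 and 0.858 in WT, so that replicate 1 of M1BP RNAi was above the other 5 libraries. Unc-89 and Mlc2 differed between the genotypes in all 3 replicates and were called. The groups of Act88F, RyR, bt and TpnC25D were also apart, but these genes were not called, and bt passed the filter only through M1BP RNAi. The spread between replicates of low genes was wide enough that log2 ratios of the 15 tested genes under 10 CPM per kb had a median SE of 0.29, against 0.059 for the 9 tested genes above it.

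**Figure D4:**
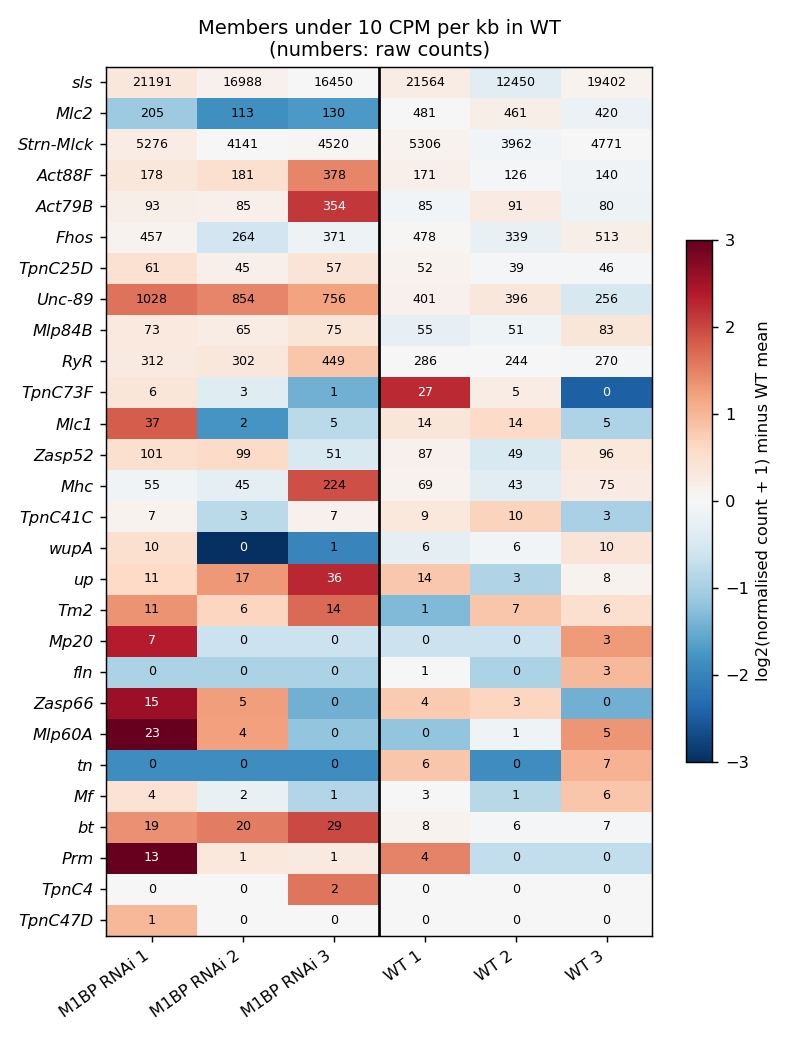
Members under 10 CPM per kb in WT with a count in any library (rows, ordered by the WT level) in the 6 libraries (columns, M1BP RNAi left of WT), with raw counts as numbers and the log2 of the normalised count plus 1, relative to the WT mean, as colour. Unc-89 is higher and Mlc2 lower in all 3 M1BP RNAi libraries, while Mhc and Act79B are highest in M1BP RNAi replicate 3 and Mlc1, Prm and Mlp60A in replicate 1.

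Summed, the 38 genes reached 3325, 3147 and 3208 CPM in M1BP RNAi, against 2861, 2769 and 2843 in WT. The groups did not overlap, and the mean in M1BP RNAi was 1.14 times that in WT, given without a test. Most of this sum came from few genes. Without Act57B and Act87E it was 2295, 2166 and 2212 CPM in M1BP RNAi, against 2192, 1991 and 2175 in WT, and the groups overlapped. By role, the 4 muscle actins summed to 987 to 1035 CPM in M1BP RNAi and 673 to 783 in WT, and the 6 myosin and thick filament genes to 3.77 to 7.90 CPM in M1BP RNAi and 10.2 to 11.9 in WT. Within the thick filament genes Mlc2 was the largest part in 5 of 6 libraries, and Mhc in M1BP RNAi replicate 3.

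Further genes of muscle structure and excitation were read from a separate list, of which 27 were in the count table and 23 were tested. edgeR called 4 of them at the 0.05 threshold, or 17.4%, where the share over all tested genes was 4.09%, and of the 4, 3 rose and 1 fell. Ca-beta, a subunit of voltage-gated calcium channels, had 612, 507 and 562 counts in M1BP RNAi, against 326, 418 and 364 in WT (log2 ratio 0.68, SE 0.15, adjusted p 0.0410, edgeR). CAP, a protein of integrin adhesion sites in muscle, had 3577, 2645 and 2734 counts in M1BP RNAi, against 2454, 2078 and 2445 in WT (log2 ratio 0.45, SE 0.094, adjusted p 0.0286, edgeR). Both genes were higher in each M1BP RNAi library than in each WT library.

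Argk, the arginine kinase that buffers ATP in muscle and other tissues, had 398170, 331792 and 359359 counts in M1BP RNAi, against 333816, 310637 and 304241 in WT (log2 ratio 0.29, SE 0.068, adjusted p 0.0460, edgeR). olf186-F, the store-operated calcium channel Orai, had 1933, 1701 and 1921 counts in M1BP RNAi, against 2746, 2125 and 2664 in WT (log2 ratio -0.34, SE 0.068, adjusted p 0.0237, edgeR). The median of the 23 was 0.087, and leaving out M1BP RNAi replicate 2, WT replicate 1 or WT replicate 3 left 0 calls, while 2 remained without M1BP RNAi replicate 1, 1 without replicate 3 and 7 were called without WT replicate 2. Of 24 genes of the cytoplasmic actomyosin machinery, 22 were tested and edgeR called 0 of them at an adjusted p of 0.05, while 8 had an unadjusted p under 0.05, where 20.2% of all tested genes did, and DESeq2 called 5, where it called 7.97% of all genes it tested. Their median was 0.0094.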

How the data were processed

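The authors' count table held raw counts of reads over exons per gene (featureCounts, Subread 2.0.3, dm6; bcl2fastq 2.17.1.14 upstream, per the labels), from SMART-Seq v4 cDNA and Nextera XT libraries. The aligner and the use of strand are not given in the sources used here. From the deposited comparison table (DESeq2 1.3.0 per the labels) only identifiers and symbols were used. Its mean normalised signal, its log2 fold change with standard error, and its p-values and adjusted p-values, all made by the authors, were not used.

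Symbols were joined to counts by FlyBase identifier, and positions and exon overlaps came from the dm6 exon coordinates in the authors' count table (GenomicRanges 1.54.1). Genes passing filterByExpr (minimum count 10), 10306 of 17494, were tested with edgeR 4.0.16 in R 4.3.3 (TMM, quasi-likelihood, genotype only, Benjamini-Hochberg over all tested genes). The standard errors given with edgeR were derived, as the absolute log2 ratio divided by the square root of the quasi-likelihood F statistic. The study's threshold was used beside an adjusted p of 0.05. Levels are CPM of the TMM-scaled library. Depth was 43086545 to 51855156 counts per library. Alternatives were DESeq2 1.42.0, RLE factors, library totals, no filter, 1 CPM in 3 libraries, a replicate block and leaving out each library. Named with values in every library were members at an adjusted p of 0.05, the 6 highest in WT, those under the filter, and called genes of the other lists (at most 6 a list). Further members were named after their values were seen. Members were chosen by symbol and lists by function, but with earlier results of these data known, so that the shares of called genes are not free of that choice.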

Additional observations from a re-analysis of the deposited data

How the results depend on the processing

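Act87E, Mlc2 and Unc-89 were called at an adjusted p of 0.05 under all 12 alternatives, and Act57B under 7 of 12. At the study's threshold the count of members was 3 with DESeq2, 3 without a filter on low counts and 1 with at least 1 CPM in 3 libraries, and 0 to 1 when single libraries were left out. At an adjusted p of 0.05 leaving out single libraries gave 3 to 4 members. The list of other muscle genes gave 8 calls with DESeq2, 7 without a filter and 0 to 7 with single libraries left out. Cytoplasmic actomyosin genes gave 5 calls with DESeq2, 1 each with RLE factors, library totals only, no filter and the 1 CPM filter, and 0 to 4 with single libraries left out. The median log2 ratio of the members was 0.16 with the 1 CPM filter, which tests 21 members, and 0.15 to 0.27 with single libraries left out. Leaving out single libraries turned the sign of Mhc (-0.21 to 1.24), Mlc1 (-1.53 to 0.96), sls (-0.012 to 0.26) and Tm1 (-0.052 to 0.019), none of which was called. The cause was not tested.

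Replicate numbers are shared by both genotypes, but same-numbered libraries did not deviate together (correlations of 0.031, -0.046 and -0.16), so the numbers were not read as pairs. With a replicate block the same 4 members were called at an adjusted p of 0.05 and 0 at the study's threshold, the median log2 ratio was 0.18 and that of Mlc1 -0.027, and 369 genes in all were called at 0.05, against 422 without it.

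DESeq2 called 867 genes in all at 0.05 and 172 at the study's threshold, against 422 and 49 in edgeR. The 14 members under the filter had at most 27 counts in a library and were not tested, and the tested members under 10 CPM per kb had a median SE of 0.29, against 0.059 for the others.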
